A study of Mus musculus with 4 samples.

Results

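The IL-10 receptor and STAT3 signalling core comprised 8 mouse genes, Il10, Il10ra, Il10rb, Jak1, Tyk2, Stat3, Socs3 and Ddit4. These were 8 of 19806 genes with a probe kept on all 4 arrays, out of 19842 genes named. They were taken by name: each non-control probe whose gene name on the array equals 1 of these symbols was used, which gave 11 probes and 29 spots per array out of 41174 probes. The 4 samples were cultures of BALB/C mouse bone marrow, with 1 array each. Immature dendritic cells (imDCs) were grown with GM-CSF (10 ng/mL) together with interleukin-4 (5 ng/mL), taken on day 4 and purified on anti-CD11c magnetic beads. Mature dendritic cells (maDCs) were imDCs exposed for a further 4 to 5 days to lipopolysaccharide (LPS) at 10 ng/mL, the bacterial ligand that starts dendritic cell maturation. The cells labelled sDCs came from lineage-depleted bone marrow progenitors grown on a layer of Sca-1+CD117-Lin- mesenchymal stromal cells (MSCs), with LPS added on day 4, and were formed on day 9; the labels name neither GM-CSF nor IL-4 for this step. The last sample, here the antibody-treated sDCs, was the same coculture given a neutralising antibody to IL-10 at 10 µg/mL every 2 days. All 4 cultures thus share the mouse strain and the tissue of origin, and every culture but the imDCs received LPS. A culture with a control antibody was not analysed here, and the labels do not state the number of mice behind each culture.

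IL-10 is the cytokine through which macrophages, dendritic cells and T cells restrain inflammation. It binds IL-10Rα, the product of Il10ra, which is largely confined to blood cells, and then recruits the widely expressed IL-10Rβ, the product of Il10rb, which the receptors for IL-22 and the lambda interferons share. JAK1 sits on the first chain and TYK2 on the other, and together they phosphorylate the receptor and STAT3, which then dimerises and enters the nucleus. SOCS3 is a STAT3 target that blocks signalling through gp130 but leaves the IL-10 receptor free, so that STAT3 activity lasts longer after IL-10 than after IL-6. DDIT4, also called REDD1, inhibits the growth kinase complex mTORC1, and is known both as an IL-10 and STAT3 target in macrophages and as a gene of hypoxia, stress and glucocorticoid responses.

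The stretches of transcript that the values report are shown first, as the first 30 bases of the 60-base probe, since each value is a statement about that stretch and not about the whole gene. For the gene-level results, the brightest probe of each gene was used. Jak1 has 3 probes, and the third is given too because its listed direction is opposite to that of the other two.
Il10: ggaaaacctcgtttgtacctctctccgaaa
Il10ra: gtcatgaccctaatctggtacgagagctcc
Il10rb: ccatgcgggacagacatgaacattttggat
Jak1: ccaaaagactagattgtgcctaagcactcc
Jak1, opposite direction: ccaaagtctccgatcttcacttgatgctca
Tyk2: gccatgacctgaacagaccttgaatatgca
Stat3: cactctgtgagctgataccccaggctggga
Socs3: ccttcgaggctgtctgaagatgcttgaaaa
Ddit4: tgccacctgggtcttccatctagaacctgt

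Promoters, from 250 bases before to 50 bases after the RefSeq start (GRCm38.p6), were listed for 5 of the 8 genes, Jak1, Tyk2, Stat3, Socs3 and Ddit4. They were searched on both strands for TTCNNNGAA, the palindromic site type to which STAT dimers bind, and for ACGTG, the core of the hypoxia response element. These motifs do not overlap each other. The Socs3 promoter held 1 match to the STAT motif, TTCTTAGAA, 154 bases before the start, and the Ddit4 promoter held 1 match to the hypoxia motif, 187 bases before the start. Neither motif was found in the Jak1, Tyk2 and Stat3 windows. Of 32851 mouse promoters of the same length, 8.30% held the STAT motif and 19.6% the hypoxia motif, so that a match is a description of these letters and no sign of binding. Both promoters are printed 5′ to 3′ along their gene, with the match in capitals, because they are the 2 windows with a match. The Socs3 promoter lies at chr11:117969317-117969616 on the minus strand and the Ddit4 promoter at chr10:59951721-59952020, also on the minus strand.
Socs3: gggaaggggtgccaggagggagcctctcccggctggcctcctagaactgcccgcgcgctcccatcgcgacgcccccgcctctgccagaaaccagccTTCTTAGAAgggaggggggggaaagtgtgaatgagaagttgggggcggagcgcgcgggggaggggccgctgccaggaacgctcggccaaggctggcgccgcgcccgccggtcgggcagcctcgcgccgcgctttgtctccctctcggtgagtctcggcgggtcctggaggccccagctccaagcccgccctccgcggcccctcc
Ddit4: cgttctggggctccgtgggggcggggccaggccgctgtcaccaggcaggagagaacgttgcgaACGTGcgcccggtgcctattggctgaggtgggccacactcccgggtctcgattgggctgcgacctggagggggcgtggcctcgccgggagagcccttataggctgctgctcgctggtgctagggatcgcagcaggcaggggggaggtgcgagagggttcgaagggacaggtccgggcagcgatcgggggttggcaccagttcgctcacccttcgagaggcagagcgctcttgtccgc

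RNA was labelled with the dye Cy3 and hybridised to one-colour Agilent arrays. A level below is the log2 processed intensity of a probe minus the 75th percentile of all non-control spots on that array. That 75th percentile was an intensity of 1994 for imDCs, 1491 for maDCs, 1310 for sDCs and 1329 for antibody-treated sDCs. Between 61.2% and 69.7% of spots were well above background and no spot was saturated. With 1 array per culture there is no replicate, so no p-value is given and the spread between cultures is unknown. The error beside a value is technical only. It is the SD over repeated spots for Il10 and Stat3, which are printed 10 times on each array, and the scanner software's own error, 0.14 on the log2 scale for bright spots, for the others. An interval on a difference is 1.96 times the combined error to each side, and covers spot and scan error alone. The imDC array shares neither its slide nor its scan with the other 3, so in every comparison with imDCs the slide and the culture cannot be told apart. A difference of at least 2-fold, that is 1 on the log2 scale, was counted, and the share of all genes past the same size is given as the background. In these bulk cultures, fewer cells of a type and less RNA per cell cannot be told apart.

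Marker genes were checked against the labels. All 13 dendritic cell markers were well above background in imDCs. In maDCs 11 of 13 were, without Clec9a and Cd209a, and in both sDC cultures 10 of 13, without these and Irf4. The summed marker signal relative to the array's 75th percentile was 293 in imDCs, 412 in maDCs, 9.72 in sDCs and 8.85 in antibody-treated sDCs. The same sum over 10 macrophage markers was 37.4, 136, 277 and 238 in that order. The 2 cultures on stromal cells therefore did not show the dendritic markers at the level of the other 2, and they are called by their label, sDC, only as a name. Such sums are carried by the brightest genes. Over 12 stromal markers they were 108, 102, 210 and 115, but Thy1 alone gave an intensity of 213293 out of 215116 in imDCs and 147827 out of 151910 in maDCs. Gene by gene, 11 of the 12 were at least 2-fold higher in sDCs, beside 25.4% of all genes against imDCs and 14.2% against maDCs. The medians over the 12 were 7.75 against imDCs and 6.60 against maDCs, and Thy1 was the 1 lower. Over 8 measured neutrophil markers the sums were 1160, 84.0, 129 and 236. In imDCs this sum was above the dendritic sum of 293, so imDC too is used only as a name. All 8 neutrophil markers were at least 2-fold lower in maDCs than in imDCs, beside 10.8% of all genes, with a median of -6.17. In sDCs all 8 were also at least 2-fold lower than in imDCs, beside 16.1%, with a median of -8.36. The part of this change in the comparisons with imDCs was not tested. S100a8 and S100a9 gave 92084 and 73856 of the 169213 in sDCs. Gene by gene, 5 of the 8 neutrophil markers were at least 2-fold lower in sDCs than in maDCs and 1 higher, beside 16.8% and 14.2% of all genes. Their median was -1.45. Eosinophil markers summed to 31.6, 3.87, 0.0991 and 0.140, and mast cell and basophil markers to 7.97, 81.3, 0.235 and 0.280.

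**Figure D1:**
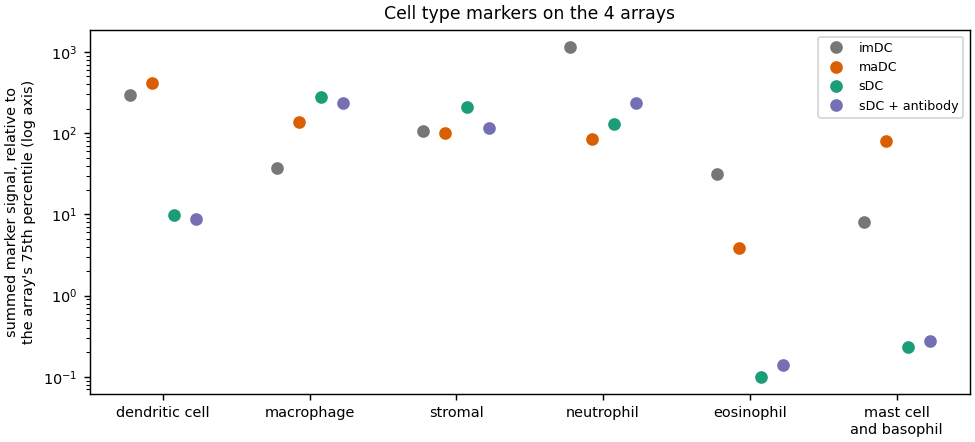
Summed signal of the marker genes of 6 cell types on each array, relative to that array's 75th percentile, on a log axis. Each point is 1 array. Dendritic cell markers stood at 293 and 412 in imDCs and maDCs and at 9.72 and 8.85 in the 2 sDC cultures, while neutrophil markers were highest in imDCs, at 1160. The stromal sums of imDCs and maDCs come almost wholly from Thy1.

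Every gene of the core was well above background on all 4 arrays through its brightest probe. In maDCs against imDCs, 5 of the 8 genes were at least 2-fold higher, beside 21.6% of the 14118 genes with a value, and 1 was at least 2-fold lower, beside 10.8%. The 5 were Il10, Il10ra, Stat3, Socs3 and Ddit4, and the lower one was Tyk2. In sDCs against imDCs, 6 of 8 were higher, the same 5 with Il10rb, beside 25.4% of 15045 genes, and Tyk2 was again the 1 lower, beside 16.1%. Between sDCs and maDCs, 1 of 8 was higher, Il10rb, beside 14.2% of 14611 genes, and 1 was lower, Il10, beside 16.8%. Those 2 counts are close to the background and are no result about the core as a group. Between antibody-treated sDCs and sDCs, 1 of 8 was higher, Ddit4, beside 0.861% of 14399 genes, and 0 were lower, beside 1.26%. The members were chosen with earlier results of these data known, so setting their counts beside the background is a description and no test. At 1.5-fold, 2 of 8 were lower in sDCs than in maDCs, Il10 and Ddit4, beside 25.2% of all genes, and 2 of 8 were higher with the antibody, Tyk2 and Ddit4, beside 2.09%.

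The median difference over the 8 genes was 1.31 in maDCs against imDCs, where the median of all genes was 0.18, and 1.78 in sDCs against imDCs, where it was 0.21. It was -0.09 between sDCs and maDCs, against 0.03 for all genes, and 0.09 between antibody-treated and untreated sDCs, against -0.03. The comparisons with imDCs depend in part on how arrays are scaled: the median of all measured genes, 0.19 for maDCs and 0.22 for sDCs, was 0.04 and 0.06 after quantile normalisation. Among measured genes past 2-fold in maDCs against imDCs, 67.1% were higher as scaled here and 56.5% in the authors' deposited value table. Relative to the median gene, the maDC minus imDC differences were 3.86 for Il10, 2.92 for Ddit4, 2.45 for Socs3, 1.22 for Stat3, 0.999 for Il10ra, 0.61 for Il10rb, 0.17 for Jak1 and -1.33 for Tyk2.

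**Figure D2:**
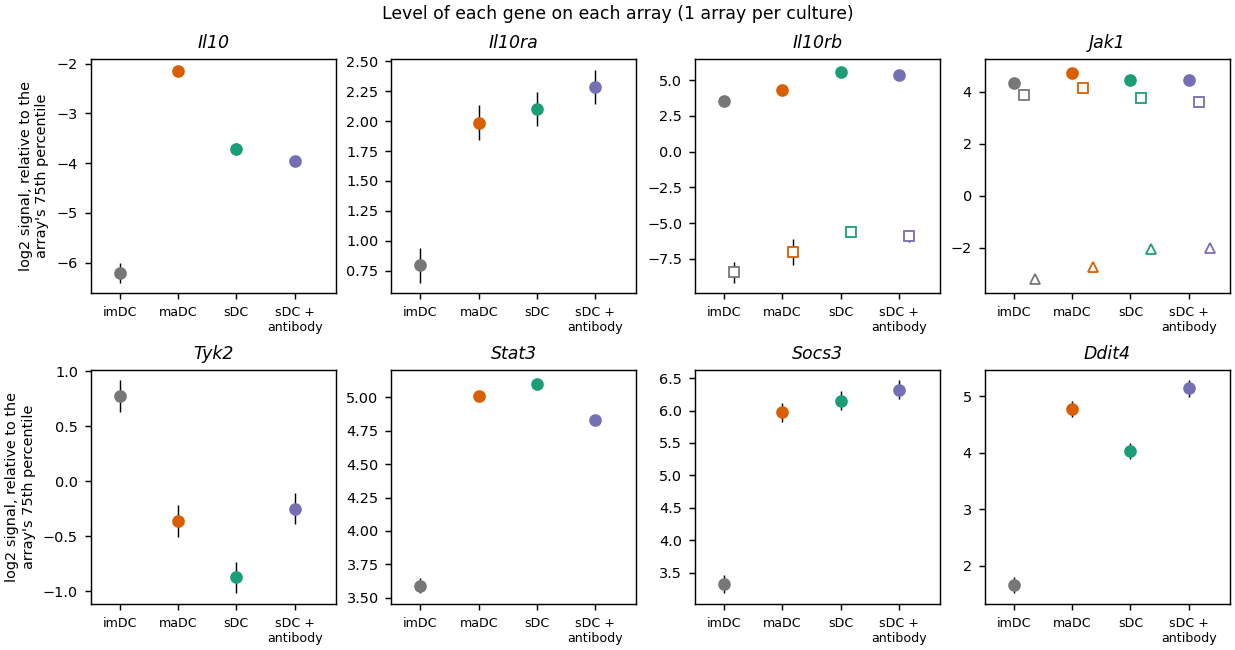
Level of each of the 8 genes on the 4 arrays, as log2 signal relative to the array's 75th percentile, with each panel on its own axis. Filled circles are the brightest probe, open squares and triangles the other probes of Il10rb and Jak1, and bars the technical error (SD over spots for Il10 and Stat3, the scanner software's error for the rest; bars smaller than the symbol are hidden). The imDC array was the lowest for Il10, Il10ra, Il10rb, Stat3, Socs3 and Ddit4, and the highest for Tyk2.

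The ligand gene Il10, read at chr1:132920943-132921002 (mm9, plus direction), was dim in every culture. Its spots averaged an intensity of 27.3 in imDCs, ranging from 21.6 to 33.8, and 336 in maDCs, ranging from 329 to 346 over the 9 spots kept. In sDCs the mean was 100.3, with spots between 90.2 and 119, and in antibody-treated sDCs it was 85.3, with 9 spots between 78.3 and 91.7. The spots of maDCs were above all others and those of imDCs below all others, while the ranges of the 2 sDC cultures met between 90.2 and 91.7. As levels, these were -6.20 ± 0.20 in imDCs, -2.15 ± 0.03 in maDCs, -3.71 ± 0.12 in sDCs and -3.96 ± 0.07 in antibody-treated sDCs (SD over 9 or 10 spots of 1 array).

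Il10 was therefore 16.6-fold higher in maDCs than in imDCs, and 2.95-fold lower in sDCs than in maDCs (log2 difference -1.56, interval -1.80 to -1.32). The first of these was reached by 112 genes, Il10 itself included, or 0.825% of those measured. In sDCs it was still 5.62-fold higher than in imDCs, but this value depends on the processing. With quantile normalisation the log2 difference was 2.05 in place of 2.49, and with normexp background correction and quantile normalisation together it was 0.90, below 2-fold. That of maDCs against imDCs was 4.05 as reported, 3.67 with quantile normalisation and 2.04 with both. The imDC signal was 2.11 times the dimmest signal called detected on that array. Under the neutralising antibody, which binds the IL-10 protein, the Il10 transcript differed from untreated sDCs by -0.25, with an interval from -0.52 to 0.02. That is within the technical error.

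**Figure D3:**
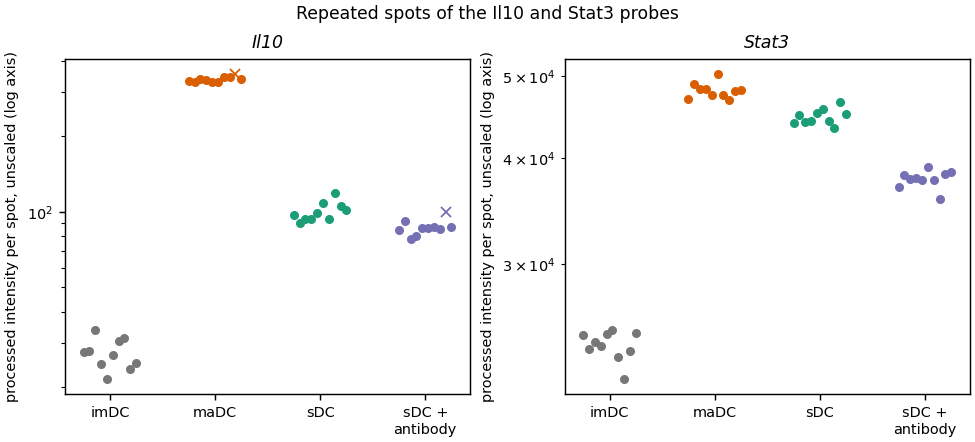
Processed intensity of each repeated spot of the Il10 and Stat3 probes on the 4 arrays, before scaling, on log axes that differ between panels. Each circle is 1 of the 10 spots of a probe on 1 array, and crosses are spots that the scanner software marked as outliers and that were left out. The Il10 spots lay between 21.6 and 33.8 in imDCs and between 329 and 346 in maDCs, and the Stat3 spots kept on the 4 arrays formed ranges that did not overlap.

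The ligand-binding chain Il10ra, at chr9:45062237-45062296 (mm9, minus direction), had intensities of 3458 in imDCs, 5914 in maDCs, 5622 in sDCs and 6478 in antibody-treated sDCs. Its levels were 0.79, 1.99, 2.10 and 2.29, each ± 0.14 (scanner software's error). The imDC culture was lowest, and the other 3 did not differ beyond the technical error, with gaps of 0.11 between maDCs and sDCs and 0.18 between sDCs and antibody-treated sDCs. Against imDCs, Il10ra was 2.29-fold higher in maDCs and 2.48-fold higher in sDCs. With arrays scaled on their median these log2 differences were 0.80 and 0.92, both below 2-fold.

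The shared chain Il10rb, at chr16:91425892-91425951 (mm9, plus direction), had intensities of 23087 in imDCs, 30235 in maDCs, 62864 in sDCs and 55882 in antibody-treated sDCs. Its levels were 3.53, 4.34, 5.59 and 5.39, each ± 0.14. The 2 cultures on stromal cells stood above maDCs, by 1.24 (interval 0.84 to 1.64) for sDCs and 1.05 for antibody-treated sDCs, and maDCs stood 0.81 above imDCs. The 2 sDC cultures did not differ beyond the technical error (-0.19, interval -0.59 to 0.21). In sDCs against imDCs the difference was 4.15-fold. The part of stromal cells in the Il10rb differences was not tested. IL-10Rβ serves several cytokines, and the other receptors of its class are given below. A second Il10rb probe, from a cDNA clone at chr16:91414583-91414642, was well above background only in sDCs, with intensities of 5.76, 11.4, 26.2 and 21.9 in the same order of cultures, so its order is not measured. Taking the median over both probes moved the maDC minus imDC difference of Il10rb from 0.81 to 1.11.

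Jak1, the kinase of the first chain, at chr4:100825794-100825853 (mm9, minus direction), had intensities of 40430 in imDCs, 38899 in maDCs, 28454 in sDCs and 28984 in antibody-treated sDCs. On the scaled level these were 4.34, 4.71, 4.44 and 4.45, each ± 0.14, and no neighbours in that order differed beyond the technical error. All 4 differences were small, at 0.36 for maDCs and 0.10 for sDCs against imDCs, -0.26 between sDCs and maDCs, and 0.01 under the antibody. The sign turned with another scaling in both comparisons with imDCs and in the antibody comparison, so no direction is given there. Between sDCs and maDCs it turned, to 0.02, in the mean over all 3 probes alone, which takes in the opposite-direction probe. A second probe, at chr4:100825094-100825153, gave 0.30, -0.10, -0.40 and -0.14 for the same comparisons.

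The third Jak1 probe, drawn from a cDNA clone and listed at chr4:100829070-100829129 in the plus direction, behaved otherwise. Its intensities were 216 in imDCs, 220 in maDCs, 319 in sDCs and 331 in antibody-treated sDCs, and its scaled levels -3.21, -2.76, -2.04 and -2.01. It was 2.25-fold higher in sDCs than in imDCs and 1.65-fold higher in sDCs than in maDCs, where both other probes were lower. With a listed direction opposite to the gene's other probes, whether it reports Jak1 transcripts was not tested. It does not enter the gene-level values.

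Tyk2, the kinase of the shared chain, at chr9:20909321-20909380 (mm9, minus direction), was the only gene of the 8 whose scaled level was highest in imDCs. Its intensities were 3412 in imDCs, 1164 in maDCs, 714 in sDCs and 1119 in antibody-treated sDCs. The levels were 0.77, -0.36, -0.87 and -0.25, each ± 0.14. It was 2.19-fold lower in maDCs and 3.14-fold lower in sDCs than in imDCs. Between sDCs and maDCs it differed by -0.52 (interval -0.92 to -0.12), and antibody-treated sDCs did not differ from maDCs beyond the technical error (0.11). The other 2 JAK genes, Jak2 and Jak3, are in the list of JAK, STAT and SOCS genes below.

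Stat3, the transcription factor of the pathway, at chr11:100749598-100749657 (mm9, minus direction), is also printed 10 times on each array. Its mean intensity was 24056 in imDCs, with spots between 21989 and 25054, and 48079 in maDCs, between 46852 and 50247. In sDCs it was 44773, between 43421 and 46606, and in antibody-treated sDCs 37812, between 35832 and 39035. Before scaling, the spots of the 4 arrays formed 4 ranges that did not overlap, in the order maDCs, sDCs, antibody-treated sDCs and imDCs.

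After scaling, the levels were 3.59 ± 0.06 in imDCs, 5.01 ± 0.03 in maDCs, 5.10 ± 0.03 in sDCs and 4.83 ± 0.03 in antibody-treated sDCs (SD over 10 spots), so that scaling put sDCs above maDCs. Stat3 was 2.67-fold higher in maDCs and 2.84-fold higher in sDCs than in imDCs. The sDC minus maDC difference of 0.08 was between 0.08 and 0.17 under the other scalings and corrections. It is small beside the spread of all genes, of which 46.0% differed as far in the same direction. A spot SD leaves out whatever differs between arrays as a whole. A further probe that names Stat3 only in its description, at chr11:100746462-100746521 in the minus direction, was dim and gave intensities of 156, 256, 549 and 718, with log2 differences of 1.13 for maDCs and 2.42 for sDCs against imDCs. Unlike the counted probe, this probe differed by 1.29 between sDCs and maDCs (interval 0.88 to 1.70), and by 0.37 under the antibody (interval -0.03 to 0.77). It was found after the values were seen and is not counted.

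Socs3, at chr11:117827480-117827539 (mm9, minus direction), encodes the feedback inhibitor that is a standard readout of STAT3 activity. Its intensities were 20008 in imDCs, 93439 in maDCs, 93076 in sDCs and 106218 in antibody-treated sDCs. The levels were 3.33, 5.97, 6.15 and 6.32, each ± 0.14. The 3 cultures that received LPS did not differ beyond the technical error from their neighbours in this order, and all stood above imDCs, by 6.25-fold in maDCs, 7.08-fold in sDCs and 7.97-fold in antibody-treated sDCs. These gaps to imDCs were matched or exceeded by 3.64% of measured genes in maDCs and 4.37% in sDCs.

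Socs3 was not lower in the culture with the IL-10 antibody. The difference was 0.17, with an interval from -0.23 to 0.57, and it ran from 0.16 to 0.21 under the alternatives. A drop of 2-fold lies outside the technical interval, while the spread between cultures is unknown. A second probe that is described as Socs3, at chr11:117828658-117828717, is listed in the plus direction, opposite to the gene's own probe. It gave intensities of 19029 in imDCs, 26661 in maDCs, 15018 in sDCs and 14308 in antibody-treated sDCs, with differences of 0.91 and 0.27 against imDCs. Like the third Jak1 probe, it was set apart from the gene-level values, here because its gene name is not a member's.

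Ddit4, at chr10:59412486-59412545 (mm9, minus direction), had intensities of 6268 in imDCs, 40685 in maDCs, 21328 in sDCs and 46817 in antibody-treated sDCs. The levels were 1.65, 4.77, 4.03 and 5.14, each ± 0.14. It was 8.68-fold higher in maDCs and 5.18-fold higher in sDCs than in imDCs, and 1.68-fold lower in sDCs than in maDCs (-0.74, interval -1.14 to -0.34). The antibody-treated culture held the highest value, 11.2-fold above imDCs, and did not differ from maDCs beyond the technical error (0.37, interval -0.03 to 0.77). Its level in sDCs thus lay between imDCs and the other 2 cultures.

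**Figure D4:**
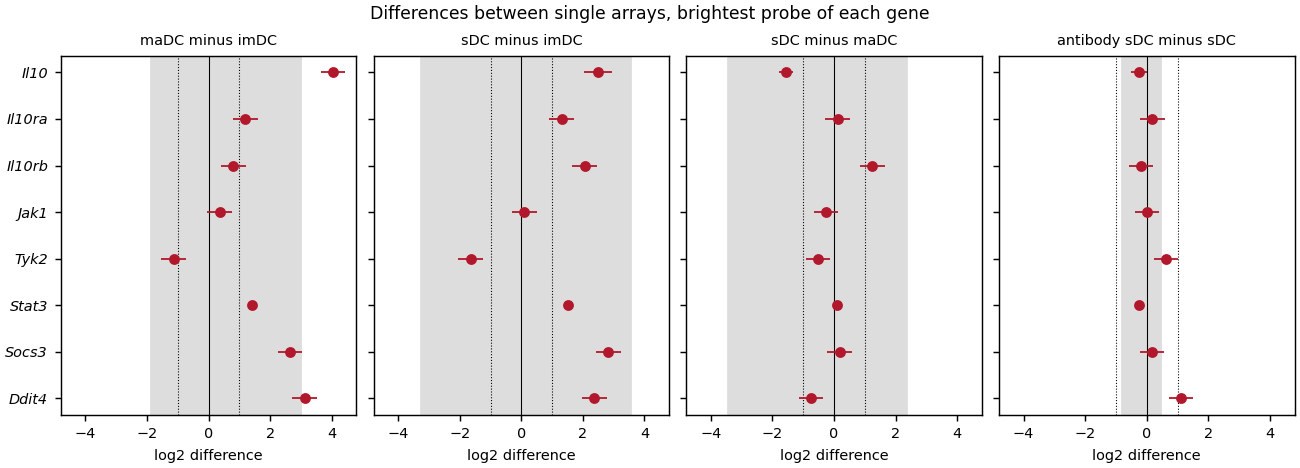
Log2 difference of each gene in 4 comparisons of single arrays, through its brightest probe. Bars are intervals of 1.96 times the technical error, the grey band holds the middle 95% of all measured genes in that comparison, and dotted lines mark 2-fold. In the antibody comparison only Ddit4, at 1.11, passed 2-fold, and Tyk2, at 0.63, also lay beyond the band.

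The antibody comparison asks what the coculture looked like when IL-10 was neutralised from outside the cells. Most of the transcriptome was close between these 2 arrays: all-gene differences had an SD of 0.28, and 95% lay between -0.80 and 0.45. Ddit4 was 2.16-fold higher with the antibody (1.11, interval 0.71 to 1.51). Counting Ddit4 itself, 50 genes, 0.362% of those measured, were as far in that direction. Its difference was 1.11 to 1.22 under the alternatives. Tyk2 was 1.54-fold higher (0.63, interval 0.23 to 1.03), a size reached by 176 genes, Tyk2 included, or 1.27%. Stat3 was 1.20-fold lower (-0.26, interval -0.35 to -0.18), a size that 10.8% of genes reached on that side. The dim probe described as Stat3 gave 0.37 (interval -0.03 to 0.77), so the direction for Stat3 depends on the probe.

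Il10, Il10ra, Il10rb, Jak1 and Socs3 stayed within the technical error in this comparison. The narrow interval of Stat3 rests on its spot SD, 0.03 in each of the sDC cultures. The scanner software's error for the Stat3 probe was 0.14, as for the genes with a single spot. Stat3 therefore cannot be set apart from the single-spot genes by its interval. Of the 2 genes introduced above as STAT3 targets, Socs3 thus differed by 0.17 and Ddit4 by 1.11. Cell type markers moved between the same 2 arrays. All 8 neutrophil markers, each well above background on both arrays, lay above 0, with a median of 1.13. Of these, 5 were at least 2-fold higher, beside 0.861% of all genes. Stromal markers were lower in 12 of 12, with a median of -0.93, and 1 of them by at least 2-fold, beside 1.26% of all genes. Macrophage markers were lower in 9 of 10, with a median of -0.34. The part of these cells in the Ddit4 and Tyk2 differences was not tested.

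**Figure D5:**
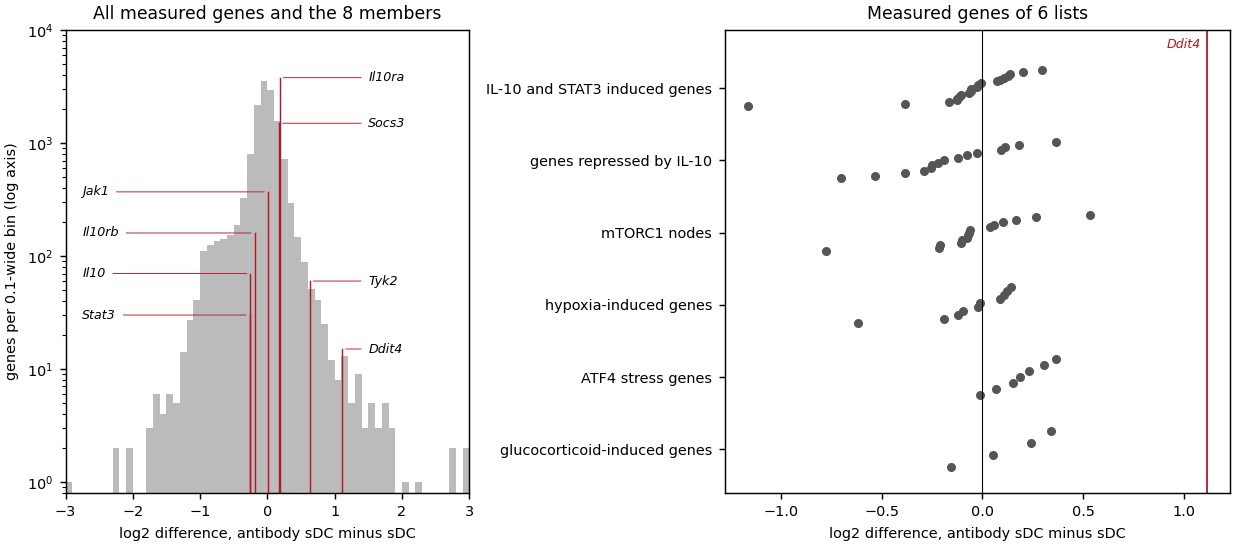
Left, histogram of the log2 difference between antibody-treated and untreated sDCs over all measured genes, with a log count axis, and the 8 genes marked by red lines whose heights carry no meaning. Right, the same difference for each measured gene of 6 lists (genes induced by IL-10 and STAT3, repressed by IL-10, of mTORC1, and induced by hypoxia, ATF4 and glucocorticoids), with Ddit4 as a red line at 1.11. No gene of these 6 lists reached the value of Ddit4, which 0.362% of all measured genes reached. Timp1 was the 1 gene past 2-fold on the lower side, beside 1.26% of all genes.

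The other genes of the pathway were taken from lists of known members and targets, in which the 8 genes themselves were left out. For the list counts in sDCs against maDCs, the background was 14.2% of all genes at least 2-fold higher and 16.8% lower. Among 15 other JAK, STAT and SOCS genes, 7 lay at least 2-fold below maDCs in sDCs and 2 at least 2-fold above, with a median of -0.95. The largest gaps belonged to feedback inhibitors other than Socs3. Socs2, which curbs growth hormone and STAT5 signals, had a log2 difference of -7.02, at an intensity of 238 against 35167. Cish, a STAT5 target, stood at -6.75, with intensities of 885 against 108474. Socs1, the inhibitor induced by interferons, stood at -4.29, with intensities of 1371 against 30550. Socs3, at 0.18, did not share this.

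Of 10 other class II receptors, the family of IL-10Rα and IL-10Rβ, 8 had a value in sDCs against maDCs, and 3 were higher and 2 lower. Il20rb, a receptor chain for IL-20 and IL-24, differed by -3.54, and Ifnlr1, the lambda interferon chain that pairs with IL-10Rβ, by -2.80. Ifngr1, the interferon-gamma receptor chain, was higher by 1.46. Of 8 receptors with a value for other cytokines that use STAT3, 3 were higher and 2 lower. Osmr, the oncostatin M receptor chain, was at least 49.4-fold higher, since it was not well above background in maDCs, with intensities of 1490 against 14.0. Stromal markers had a median of 6.60 in this comparison, and the part of stromal cells in the Osmr difference was not tested. Of the receptors on this list measured on both arrays, the largest differences were Il27ra at -2.93, Csf3r, the G-CSF receptor, at 1.63 and Il21r at -1.43. Among IL-10 family cytokines, 3 of 5 on the array had a value, and 1, Il22, was lower as a bound, since it was not well above background in sDCs. Il24, the only one measured on both arrays, differed by -0.32. Of 9 STAT phosphatases and PIAS genes, 1 was lower, Ptpn1, at -1.04.

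Genes that IL-10 and STAT3 are known to induce numbered 20 on the list. Of these, 12 of 19 with a value were at least 2-fold higher in maDCs than in imDCs, beside 21.6% of all genes. In sDCs against imDCs, 14 of 20 were higher, beside 25.4%. The medians were 1.35 and 1.76. Between sDCs and maDCs, 6 were higher and 3 lower, with a median of -0.05. Bcl6, a transcriptional repressor, was higher by 2.25, and Fcgr1, the high-affinity Fc receptor that is also a macrophage marker, by 2.01. Zfp36, which destabilises cytokine mRNAs, differed by -1.54.

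Genes that IL-10 is known to repress showed another order. Of 15, 13 were higher in maDCs than in imDCs, beside 21.6% of all genes. In sDCs against imDCs, 9 were at least 2-fold lower, beside 16.1%, and 3 higher, beside 25.4%, with a median of -1.57. In sDCs 12 were lower than in maDCs, beside 16.8%, and 0 were higher, with a median of -3.998. Il12b, the shared chain of IL-12 and IL-23, had an intensity of 181 in sDCs against 130143 in maDCs, a log2 difference of -9.30. Il1a differed by -7.95 and H2-Aa, a class II MHC chain, by -6.80. This list shares Ccr7, H2-Aa and H2-Ab1 with the dendritic cell markers, of which 10 of 11 with a value were lower in sDCs than in maDCs, with a median of -5.30, and the part of the cell type in the list's difference was not tested.

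Of 20 regulators of Il10 transcription, 4 were higher and 4 lower in sDCs than in maDCs, beside 14.2% and 16.8% of all genes, with a median of -0.002. Maf, an activator of Il10 in macrophages and T cells, was higher by 2.65, at 41092 against 7472, while Il10 itself differed by -1.56. Bhlhe40, a repressor of Il10, differed by -3.55 and Nfkb1 by -2.42. Prdm1 and Irf1 were also among the 4 lower, at -2.10 and -1.35, so that the list had no common direction.

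Around Ddit4, 4 lists were compared. Of 15 nodes of mTORC1, 1 was higher and 1 lower in sDCs than in maDCs, with Deptor at 1.06 and Ddit4l, the paralogue of Ddit4, at -3.44. Sesn2, a stress-induced inhibitor of mTORC1, differed by -0.996, just short of 2-fold. Of 10 hypoxia-induced genes, 9 were at least 2-fold higher in sDCs than in imDCs, beside 25.4% of all genes, with a median of 3.45. Against maDCs, 5 were higher in sDCs, beside 14.2%, with a median of 1.15. Pdk1, which restrains entry of pyruvate into mitochondria, was higher than in maDCs by 3.02, Ankrd37 by 2.62 and Bnip3, a mitophagy receptor, by 1.83. Ddit4 itself differed by -0.74 in that comparison.

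The ATF4 stress genes and the glucocorticoid-induced genes had medians below 0 in sDCs against maDCs. Of 7 ATF4 genes, 2 were at least 2-fold lower and 0 higher, with a median of -0.94, and of the named genes Atf3 differed by -1.58, Chac1 by -1.53 and Asns, asparagine synthetase, by -0.95. All 4 measured glucocorticoid-induced genes were lower by at least 2-fold, among them Tsc22d3 at -1.51, Fkbp5 at -1.37 and Sgk1 at -1.19.

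Between antibody-treated and untreated sDCs, few genes of the same lists passed 2-fold. The background was small too, with a share of 0.861% on the higher side and 1.26% on the lower side. A count of 0 in lists this short is therefore no result about a list. Of the 20 IL-10 and STAT3 induced genes, 0 were at least 2-fold higher and 1 was lower, with a median of -0.04. That gene was Timp1, an inhibitor of matrix proteases that stromal cells also make. Its intensity was 7080 against 15649, a log2 difference of -1.17, and the stromal marker median was -0.93. The part of stromal cells in the Timp1 difference was not tested. Fcgr1 differed by -0.39 and Zfp36 by 0.29. Of the 15 genes repressed by IL-10, 0 passed 2-fold in either direction and 4 lay above 0, with a median of -0.19. Il12b differed by -0.70, Il1a by -0.54 and Ccr7 by -0.39, which are all on the lower side. The Il12b and Il1a probes were dim, with intensities of 112.9 against 181.2 and 104.5 against 149.4. Brighter genes of the list went both ways, with Tnf at 0.18, Il1b at 0.11, Cxcl1 at -0.29 and Ccl4 at -0.26.

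Among the 15 other JAK, STAT and SOCS genes, 0 passed 2-fold in either direction with the antibody, with Socs2 at -0.53 and Socs7 at 0.29. Of 9 class II receptors with a value, 1 was higher, Ifnlr1, by 1.21, at an intensity of 178 against 75.7, while Ifngr2 and F3, which encodes tissue factor, differed by -0.22 and -0.50. Of 8 receptors for other STAT3 cytokines, 0 passed 2-fold, with Il6ra, a chain of the IL-6 receptor, at 0.77, Osmr at -0.77 and Il21r at -0.31. Of 9 STAT phosphatases and PIAS genes 0 passed, with Pias4 at 0.32, Pias3 at 0.24 and Pias1 at -0.20. Of 20 regulators of Il10 transcription 0 passed either, with Maf at -0.37, Cebpb at 0.35 and Prdm1 at -0.25. Il24 and Ifnl3, the 2 IL-10 family genes with a value, differed by -0.32 and 0.20.

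The lists around Ddit4 gave no other gene as far as Ddit4 itself, a size that 0.362% of all measured genes reached. Lists this short would seldom hold such a gene, and what lay behind the Ddit4 difference was not tested. Of 10 hypoxia-induced genes, 0 passed 2-fold and 4 lay above 0, with Adm at -0.62, P4ha1 at -0.19 and Ndrg1 at 0.14, and the median was -0.02. Of 7 ATF4 genes, 0 passed 2-fold while 6 lay above 0, with Atf4 at 0.37, Trib3 at 0.31 and Ddit3 at 0.23, and the median was 0.19. Of 4 measured glucocorticoid-induced genes, 0 passed and 3 lay above 0, with Per1 at 0.34, Tsc22d3 at 0.24 and Sgk1 at -0.15. Of 15 nodes of mTORC1, 0 passed, with Akt1s1 at 0.53, Mtor, the kinase itself, at 0.26 and Ddit4l at -0.78. Ddit4 and its paralogue thus had opposite signs, and the Ddit4l probe was dim, at 48.8 against 82.3.

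Among themselves, the 8 genes were compared by the Euclidean distance between their centred levels over the 4 arrays. The closest pair was Il10ra and Stat3, at 0.38, followed by Socs3 and Ddit4 at 0.78 and by the receptor chains Il10ra and Il10rb at 0.84. The farthest pair was Il10 and Tyk2, at 3.88. These distances rest on 4 points that share arrays and scaling, and are a description.

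Among 12947 other genes detected in every culture, the 3 nearest to each member were listed by the same distance. For Il10 they were Il23r, Oasl2 and Ppfia3, at 0.20 to 0.29, and for Il10ra Pdzd7, Krt14 and Ier3, at 0.05 to 0.06. For Il10rb they were Fxyd5, Slc35f6 and Jarid2, at 0.07 to 0.08. Hes2 and Tox4 were among the 3 nearest to Jak1, both at 0.03, and Tyk2 was nearest to Zdhhc18, Abtb1 and Olfr1387, at 0.21 to 0.22. Stat3 was nearest to Rab2b, Mrgpre and Rhbdd3, at 0.02 to 0.09, and Socs3 to Tal2, Mir22hg and Acsbg1, at 0.06 to 0.14. Ddit4 had the most distant neighbours, Prickle2 at 0.45, Ucp1 at 0.58 and Klf15 at 0.70, and each of these 3 distances was larger than the nearest distance of any other member.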

How the data were processed

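Each of 4 RNA samples was hybridised to 1 Agilent one-colour array. The deposited scanner tables hold processed intensities, which are background-subtracted, per the file headers (Feature Extraction 10.5.1.1; the submitters' processing notes name version 9.1), with probe positions on mm9. The deposited value table holds log2 values of the same arrays, found by setting each column against that array's scanner values (r of 0.997 to 1.00); its median is 6.30 in each column, and how the authors centred it is not stated in the sources used here. No depth applies: the number of arrays limits the precision.

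From the scanner tables, control spots were left out, and the 75th percentile over all other spots of an array was subtracted from the log2 intensities. The 76 to 148 spots per array marked as outliers were then left out, and repeated spots were averaged. A probe was well above background on an array where at least 50% of its spots were, and a gene was read through its brightest probe. A gene with a dim side entered counts only as a bound. Probe names were matched to current symbols through RefSeq accessions, symbols and synonyms; of 41174 probes, 8075 had no match. Promoter sequences are from RefSeq, GRCm38.p6. Differences were counted past 2-fold with no test, since a single array per group leaves no residual degrees of freedom. Named genes are all member probes, the 3 genes of each list with the largest difference in sDCs against maDCs and in the antibody comparison, and the 3 nearest patterns per member; Il22, Osmr in sDCs against maDCs, Prdm1, Irf1 and the 2 probes named only by their description were added after the values were seen, and 2 genes that the rule names are not reported here. The members and lists were chosen with earlier results of these data known. Alternatives were quantile, median and detected-probe scaling, normexp (offset 50, limma 3.58.1) with quantile normalisation, the value table, all or averaged probes, other filters, outlier spots kept and a 1.5-fold threshold. The scripts were tested on simulated data. Python 3.11.15 was used.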

Additional observations from a re-analysis of the deposited data

How the results depend on the processing

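The 8 genes in 4 comparisons gave 320 values under 10 alternatives, of which 271 moved by no more than the technical error and 49 by more. The sign turned in 9 of them, all of Jak1, whose differences lay within the technical error as reported. A gene crossed the 2-fold line in 4 cases: Il10ra with median scaling (0.80 in maDCs and 0.92 in sDCs against imDCs), Il10rb with the median over all probes (1.11 in maDCs against imDCs), and Il10 with normexp correction and quantile normalisation together (0.90 in sDCs against imDCs, where quantile normalisation alone gave 2.05). The cause was not tested. Of 88 member counts under alternatives, 2 moved by more than 1.5 times, both with a 1.5-fold threshold: 2 genes, Il10 and Ddit4, were then lower in sDCs than in maDCs, beside 25.2% of all genes, and 2, Tyk2 and Ddit4, were higher with the antibody, beside 2.09%. The imDC comparisons rest on an array of another slide. Dim probes, such as Il10 in imDCs at 2.11 times the dimmest detected signal, are limited by background. Leaving out an array was not possible with 1 per group. No paired analysis was possible because each group holds 1 array.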
